A study of Atriplex lentiformis with 9 samples.

Results

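Root expression in quailbush (Atriplex lentiformis), a shrub of saline and dry soils, was set side by side for plants grown in mine tailings with 20% compost (TC20) and with 15% compost (TC15). All plants grew in the tailings, and roots were taken at 11 weeks. The comparison used 6 of the 9 libraries of the study, each from the root of 1 plant: TC15 plants 2, 6 and 10 and TC20 plants 3, 5 and 9. Roots in 10% compost (TC10) were represented by plants 2 and 4, whose values are given beside the comparison where they help place it; the file titled TC10 plant 5 repeats TC15 plant 6 and was left out. The study asks how zinc in the plant relates to its genes and to the soil, and the labels give root zinc, arsenic and lead for each plant. Of 5164 entries listed in any library, 4801 had a value of 10 or more in at least 2 of the 8 libraries and were tested. Each entry carries the name of an Arabidopsis protein and stands for the quailbush transcripts matched to it, so close paralogs are uncertain, and roles given below are those known in Arabidopsis.

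Zinc is both a nutrient and, in tailings, a toxin. Plant roots take it up through transporters of the ZIP family, move it as complexes with nicotianamine through YSL carriers, and store it in the vacuole. Abscisic acid is the hormone of drought and salt stress: its PYL receptors bind protein phosphatases 2C of one clade, which releases SnRK2 kinases that activate bZIP factors. Pentatricopeptide repeat proteins form one of the largest plant families. They bind RNA in mitochondria and plastids and take part in editing, splicing and stabilising the transcripts of those organelles.

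The 6 libraries held 3030394 to 4361964 recovered reads and listed 4995 to 5020 entries each. None of 18 markers of green tissue was listed. Of 20 root markers 8 were listed, and the 5 Casparian strip proteins were not among them. Their summed values were 2818, 2998 and 5233 normalised reads in TC15 and 5733, 6698 and 4097 in TC20. PHO1 had the widest range of the 8, with 810, 1085 and 2863 in TC15 and 2668, 4692 and 1317 in TC20. The sums therefore do not measure root content. TC20 plant 9 stood apart: it held the highest of the 6 values in 1371 entries and the lowest in 1210, against 421 to 953 and 508 to 985 in the other libraries. Its highest Spearman correlation with another of the 6 libraries was 0.943, against 0.970 to 0.971 in the others. Its lowest was 0.921, the same as for TC15 plant 2. TC15 plant 2 was next, with the highest value in 953 entries and the lowest in 985. For some groups of genes, counts are also given without 1 of these plants. Counts given only for all 6 libraries may rest on these plants too.

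Root zinc was lower with more compost. It was 373, 565 and 1075 ug/g in TC15 plants 2, 6 and 10 and 215, 277 and 174 ug/g in TC20 plants 3, 5 and 9. Each TC20 root lay below each TC15 root, and the means were 671 ± 363 and 222 ± 51.9 ug/g (SD, n = 3 plants each). The exact two-sided permutation p was 0.1, the lowest possible with 3 plants a group, and 0.7 adjusted over 7 measurements. The stress score, whose scale is not explained, was 3, 4 and 4 in TC15 and 2, 3 and 2 in TC20 (exact permutation p = 0.2, adjusted 0.7). Root arsenic averaged 123 ± 90.1 ug/g in TC15 and 92.3 ± 23.7 in TC20, and root lead 34.3 ± 23.1 and 42.7 ± 14.6 ug/g, with overlapping groups (exact permutation p = 0.7 and 0.6, adjusted 0.9 each). Height, branch number and longest branch overlapped too (exact permutation p = 0.9, 0.5 and 0.9). Compost share and root zinc went together in these plants, so their parts in any difference in expression cannot be told apart.

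**Figure D1:**
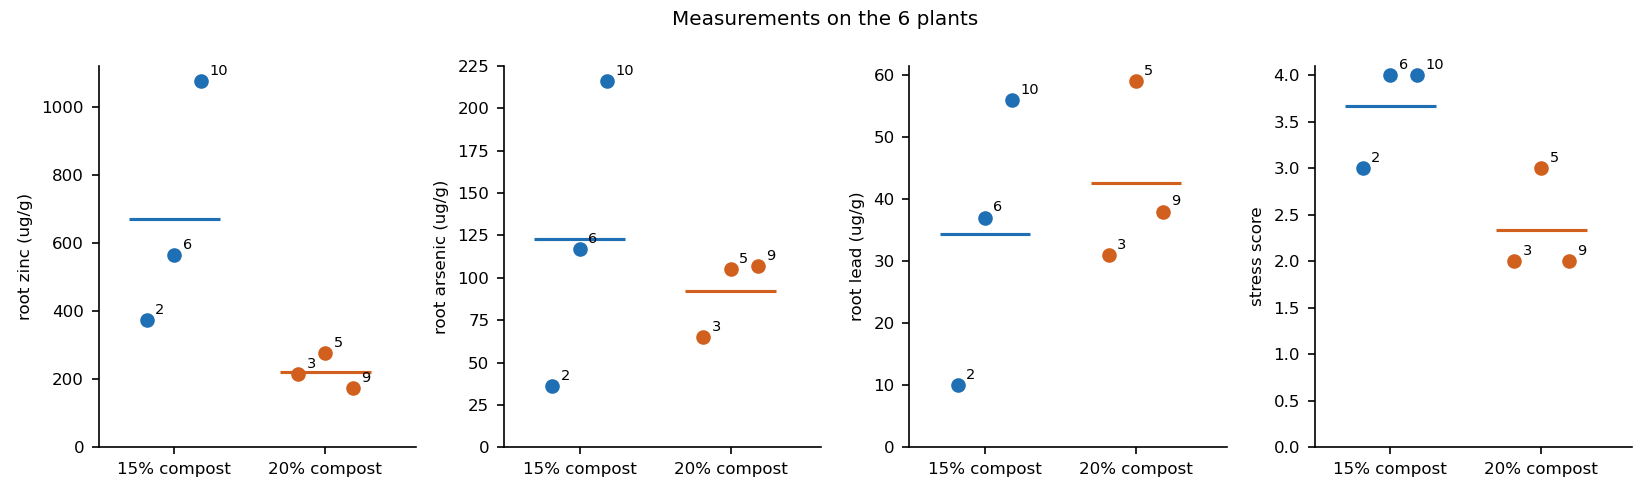
Root zinc, arsenic and lead in ug/g and the stress score (vertical axes) of each plant, numbered, in 15% and 20% compost; lines are group means. The TC20 zinc values of 174 to 277 ug/g lie below the TC15 values of 373 to 1075, while the other 3 measurements overlap.

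Most entries differed little between the treatments. The median log2 difference of TC20 minus TC15 was 0.01, 94.0% of entries lay within 2-fold, and the range from the 5th to the 95th percentile was -0.75 to 0.77. Of all 4801 entries 2480 (51.7%) were higher in TC20 and 2321 (48.3%) lower, the shares to set beside the list counts below. Without TC20 plant 9 there were 2413 higher. With limma, on log2(value + 1) and with Benjamini-Hochberg adjustment over all 4801 entries, 1 entry passed the adjusted threshold of 0.05 (0.0208%). It was higher in TC20. The next lowest limma adjusted p was 0.790. At an unadjusted p under 0.05 there were 280 entries (5.83%), 146 higher in TC20 (3.04%) and 134 lower (2.79%). The 3 TC20 values lay above all 3 TC15 values in 335 entries (6.98%) and below them in 283 (5.89%), and with means at least 2-fold apart in 55 (1.15%) and 46 (0.958%). DESeq2 on the recovered reads called 11 of 5147 entries (0.214%), 4 higher (0.0777%) and 7 lower (0.136%), and the edgeR quasi-likelihood test called 0 (309 at an unadjusted p under 0.05, 6.44%). In whole roots, fewer cells of a type and less RNA per cell cannot be told apart.

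**Figure D2:**
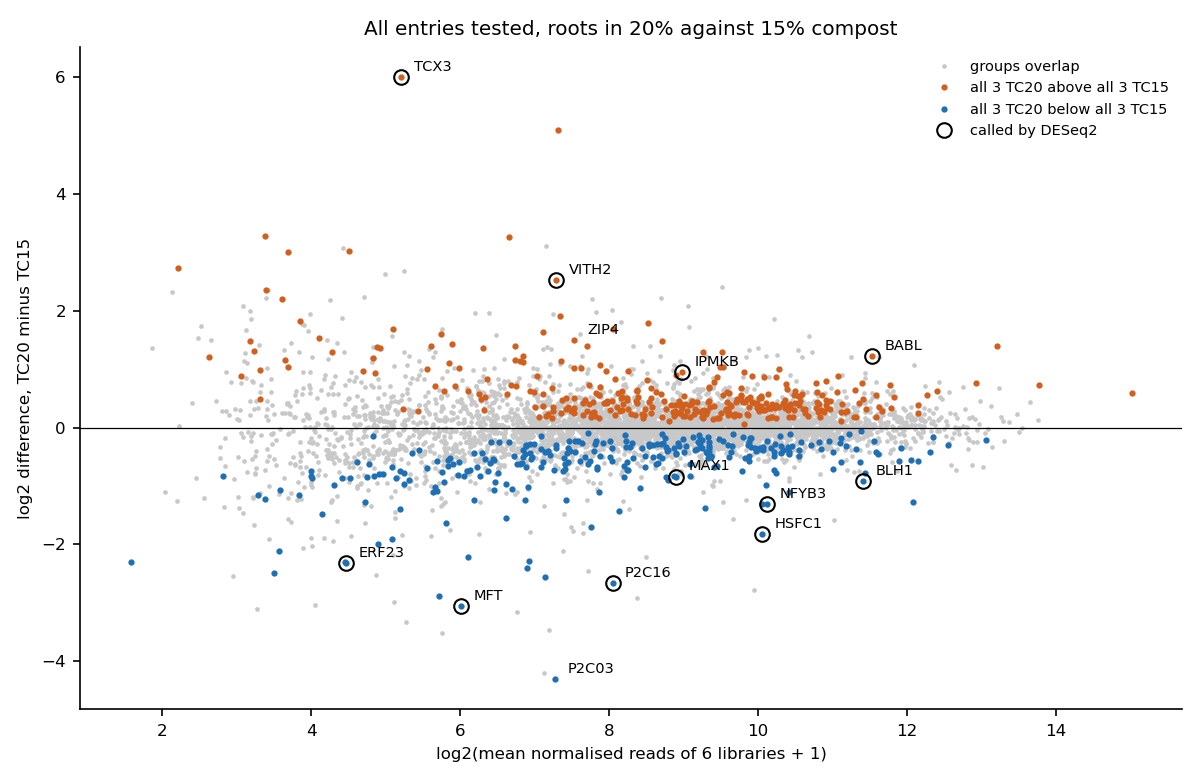
Log2 difference of TC20 minus TC15 (vertical axis) against the log2 mean normalised reads of the 6 libraries (horizontal axis) for the 4801 entries tested. Coloured points have groups that do not overlap and circles mark the 11 entries called by DESeq2; TCX3, at 6.00, is the entry that passed with limma, and P2C03, at -4.31, has the lowest difference among the labelled entries.

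TCX3, a DNA-binding protein of the tesmin type with CXC domains, rose in TC20. It had 41.5, 47.2 and 127 normalised reads in TC20 plants 3, 5 and 9 and 0 in each TC15 library, while TC10 plants 2 and 4 had 33.3 and 27.0. TC15 was thus the treatment at 0, with 212 reads in TC20 and 63 in TC10. The TC20 mean was at least 70.9-fold higher than TC15 when 3 counts over the TC15 group are taken as the floor, and the bound was 43.7-fold without TC20 plant 9. The log2 difference was 6.00 (SE 0.58, limma adjusted p = 0.0426; DESeq2 adjusted p = 9.65e-07). The 3 TC15 values of exactly 0 add no spread between plants. Each fit that left out 1 of the 8 libraries ended the limma call (adjusted p 0.107 to 0.275), as did edgeR (adjusted p = 0.773) and limma-voom (adjusted p = 0.824).

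The other entries higher in TC20 by the DESeq2 test were BABL, IPMKB and VITH2. BABL, a small blue copper protein, had 2017, 1893 and 1415 normalised reads in TC15 and 3586, 3735 and 5149 in TC20. The TC20 values were all higher, and the TC10 values of 3099.6 and 3617 also lay above TC15. Its log2 difference was 1.22 (SE 0.21, limma adjusted p = 0.790; DESeq2 adjusted p = 0.000321). IPMKB, an inositol polyphosphate multikinase, had 346, 394 and 290.2 normalised reads in TC15 and 635, 573 and 787 in TC20, with a log2 difference of 0.95 (SE 0.19, DESeq2 adjusted p = 0.0154). TC10 plants, at 275 and 344, were like TC15. VITH2, a relative of the vacuolar iron transporter, had 36.4, 44.2 and 24.7 in TC15 against 82.1, 170.5 and 574 in TC20. The groups did not overlap, but the TC20 values spanned a wide range with plant 9 at the top (log2 2.52, SE 0.67, DESeq2 adjusted p = 0.0154).

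Of the 3 tested members of the ZIP family, ZIP4 was the 1 whose groups did not overlap (33.3%, against 12.9% of all entries). With 3 members this share says little about the family. ZIP4, a zinc uptake transporter whose transcripts accumulate under zinc deficiency, had 104, 103 and 67.9 normalised reads in TC15 and 198, 443 and 191 in TC20. All 3 TC20 roots were above all 3 TC15 roots and above the TC10 values of 92.4 and 108. A link between ZIP4 and root zinc was not tested. The mean was 3.03-fold higher (log2 1.5, SE 0.36, limma adjusted p = 0.790; DESeq2 adjusted p = 0.0593), so ZIP4 did not pass. The other tested members of the family were ZIP1, with a log2 difference of 0.39 (SE 0.39), and the putative zinc transporter ZTP50, with -0.02 (SE 0.16), and both overlapped.

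Of 17 tested metal export and storage proteins 11 were higher and 6 lower, with a median log2 difference of 0.16 against 0.01 for all entries. Groups did not overlap in 2 higher (11.8%, against 6.98% of all entries) and 1 lower (5.88%, against 5.89%). VITH2 was called by DESeq2 and no member passed with limma. MTP1, a carrier of zinc into the vacuole, had 1487, 1259 and 1339 normalised reads in TC15 and 1184, 1186 and 651 in TC20. Its TC20 values were all lower, though the difference did not pass (log2 -0.48, SE 0.26, limma adjusted p = 0.790). MTPC4, of the same family, was higher without overlap (log2 0.16), and MTP10 and MTP12 overlapped (log2 -0.006 and -0.08). All of these MTP members were named after their values were seen. Among 11 tested genes of metal chelate transport and synthesis the groups did not overlap in 5 (45.5%, against 12.9% of all entries), 1 higher and 4 lower. YSL3, a metal-nicotianamine carrier, had 289, 295 and 249.7 normalised reads in TC15 and 218, 109 and 204 in TC20 (log2 -0.71, SE 0.29). YSL6, another carrier of that family, went the other way, with 675, 628 and 728 in TC15 and 925, 768 and 849 in TC20 (log2 0.32, SE 0.13). ZIFL1, a facilitator related to zinc-induced carriers, had 4732, 6832 and 4701 in TC15 and 4265, 4112 and 2647 in TC20 (log2 -0.57, SE 0.24). None of the members in these lists passed with limma. Of 9 tested copper proteins 7 were higher, BABL and the early nodulin-like protein ENL3 without overlap (22.2%, against 6.98% of all entries). Without TC20 plant 9 there were 4 of 9 copper proteins higher (median -0.02). ENL3 had 177, 205 and 187 normalised reads in TC15 and 509.6, 255 and 1169 in TC20.

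**Figure D3:**
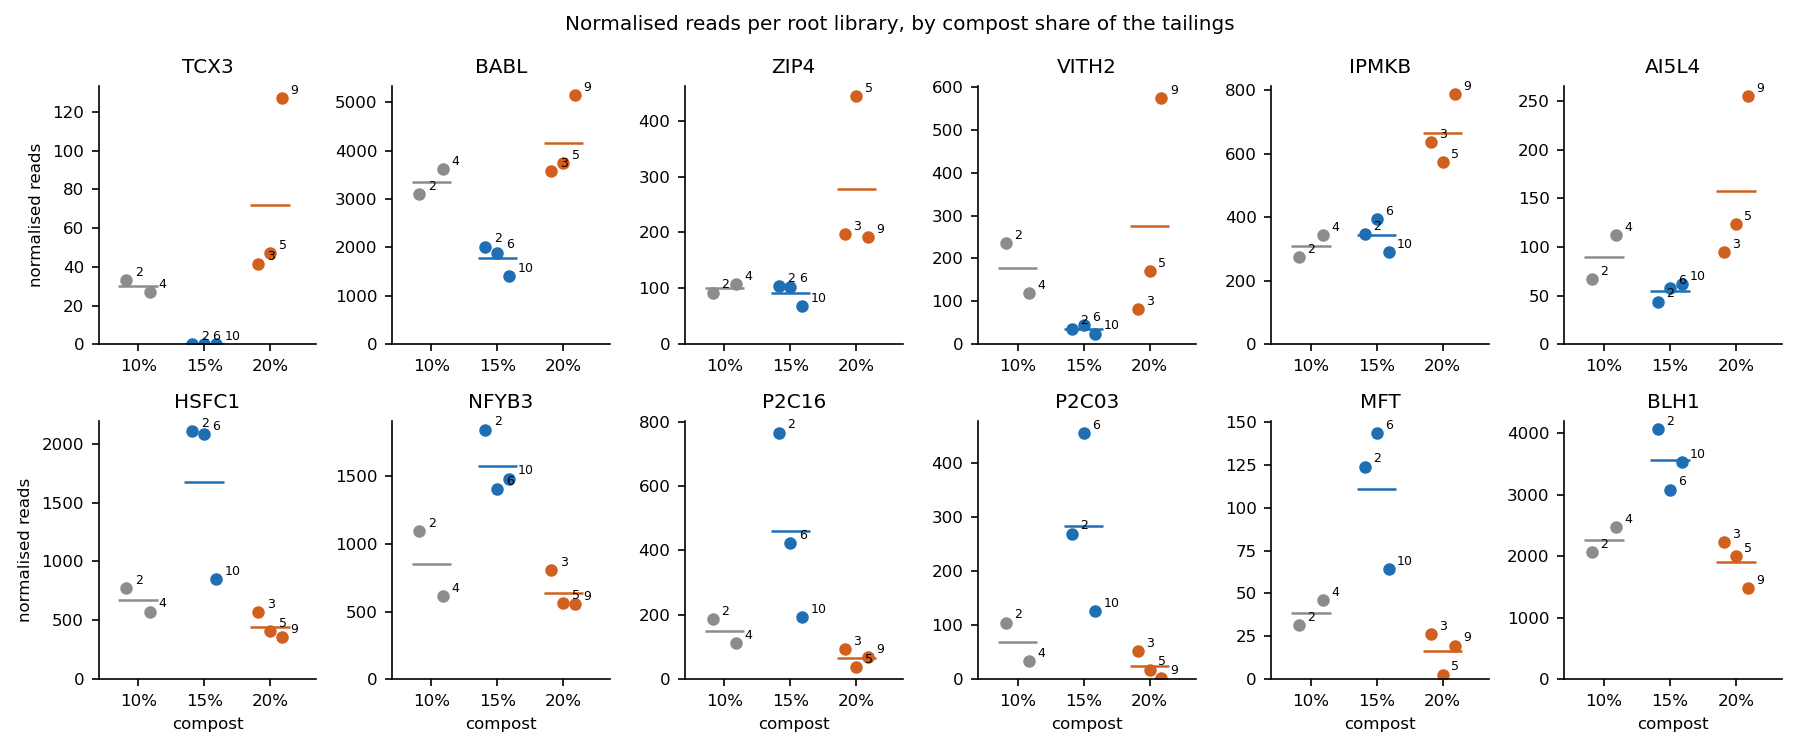
Normalised reads (vertical axes, from 0) in each root library, numbered by plant, at 10%, 15% and 20% compost (horizontal axes), with group means as lines; the upper row holds entries higher in TC20 and the lower row entries lower in TC20. The 12 panels were chosen from entries whose TC15 and TC20 groups do not overlap, as in 12.9% of all entries. For TCX3 the 3 TC15 values of 0 stand out.

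The 7 entries lower in TC20 by DESeq2 were mostly regulators: the transcription factors HSFC1, NFYB3, BLH1 and ERF23, the phosphatase P2C16, and MFT and MAX1. None passed with limma (adjusted p = 0.790 each). Of the 11 DESeq2 calls 4 were kept without TC20 plant 9, 4 without TC15 plant 6, and 2, TCX3 and BABL, without TC15 plant 2. HSFC1, of the heat stress factor family, had 2106, 2079.5 and 849 normalised reads in TC15 and 567, 406 and 357 in TC20. Even the lowest TC15 root exceeded the highest TC20 root, and the TC15 mean was 3.78-fold the TC20 mean (log2 -1.83, SE 0.37, DESeq2 adjusted p = 0.00172). TC10, at 775 and 573, lay between the TC15 and TC20 ranges. NFYB3, a subunit of the CCAAT-binding factor, had 1846, 1404 and 1484 in TC15 and 804, 559.5 and 554 in TC20 (log2 -1.31, SE 0.26, DESeq2 adjusted p = 0.0149). BLH1, a homeodomain factor of the BEL1 type, had 4069, 3081 and 3534 in TC15 and 2223, 1993 and 1484 in TC20 (log2 -0.92, SE 0.20, DESeq2 adjusted p = 0.0329). In both of these factors the 3 values of each treatment lay close together. ERF23, an ethylene response factor, was scarce, with 52.2, 29.5 and 25.6 normalised reads in TC15 and 9.12, 3.5 and 6.51 in TC20 (log2 -2.33, SE 0.51, DESeq2 adjusted p = 0.0400). MAX1, a cytochrome P450 of strigolactone synthesis, had 515, 700.1 and 623 in TC15 and 349.5, 386 and 289 in TC20 (log2 -0.84, SE 0.18, DESeq2 adjusted p = 0.0400). MFT, a relative of the flowering regulators FT and TFL1 that acts in seed germination, had 124, 144 and 64.4 in TC15 and 26.3, 2.62 and 19.5 in TC20 (log2 -3.06, SE 0.76, DESeq2 adjusted p = 0.0445).

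Entries of abscisic acid signalling differed in both directions. Of 22 tested members 13 were higher and 9 lower, with a median log2 difference of 0.10, and the groups did not overlap in 1 higher (4.55%, against 6.98% of all entries) and 4 lower (18.2%, against 5.89%). P2C16, a phosphatase that restrains the pathway, had 766, 424 and 192 normalised reads in TC15 and 93.2, 36.7 and 69.5 in TC20. The TC15 plants spread widely among themselves, yet all lay above TC20 (log2 -2.66, SE 0.55, DESeq2 adjusted p = 0.00124). P2C03, a phosphatase of the same clade, had 269.6, 456 and 126 in TC15 and 51.7, 17.5 and 1.09 in TC20 (log2 -4.31, SE 1.14, DESeq2 adjusted p = 0.0670). A further member of the clade, P2C56 (ABI1), chosen after its values were seen, had 265, 301 and 128 in TC15 and 101, 22.7 and 19.5 in TC20 (log2 -2.57, SE 1.6). These 3 were the phosphatases 2C whose groups did not overlap. They made up 12% of the 25 tested, against 5.89% of all entries lower and 12.9% in either direction. Of the 25, 14 were higher and 11 lower, and the median was 0.04.

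Genes known to respond to abscisic acid or dehydration differed in both directions. GOLS2, a galactinol synthase, had 133, 124 and 154 normalised reads in TC15 and 88.1, 76.1 and 41.3 in TC20 (log2 -1.06, SE 0.31). LTI65, an abscisic acid-induced protein also known as RD29B, had 2839, 1695 and 408 in TC15 and 804, 69.9 and 104 in TC20, and its groups overlapped (log2 -2.78, SE 1.0). XERIC, a RING protein that raises abscisic acid levels, chosen after its values were seen, had 2255, 1316 and 924 in TC15 and 642, 692 and 803 in TC20 (log2 -0.98, SE 0.33). The response genes GOLS1, RD22, RD21A and ERD15 had log2 differences of 0.84, 0.44, 0.12 and 0.08, all with overlap. Receptors, kinases and bZIP factors differed in both directions too. PYL4, an abscisic acid receptor, had 301, 383 and 948 in TC15 and 605, 1962 and 1449 in TC20 with overlap (log2 1.32, SE 0.53). AI5L4, a bZIP factor of the ABI5-like group, had 43.8, 57.7 and 61.8 in TC15 and 95.2, 123 and 255 in TC20 without overlap (log2 1.40, SE 0.41). AI5L2, of the same group, was lower without overlap (log2 -0.24). The factor ABI5, the receptor PYL2 and the kinase SRK2E had log2 differences of -0.69, -0.31 and 0.02, with overlap. None of these passed with limma (adjusted p = 0.790 or higher) or DESeq2.

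NAC factors, a plant family of regulators of stress and senescence, were lower in 19 of 23 tested entries, with a median log2 difference of -0.18. Of 4 whose groups did not overlap all were lower (17.4%, against 5.89% of all entries). NAC72 (RD26), an abscisic acid-induced factor, had 2418, 789 and 1434 normalised reads in TC15 and 503, 720.4 and 491 in TC20 (log2 -1.31, SE 0.38). NAC92 (ORE1), a senescence regulator, had 18.7, 27.0 and 29.1 in TC15 and 11.1, 8.74 and 5.43 in TC20 (log2 -1.48, SE 0.49). Both were lower in every TC20 root. The number of NAC entries lower lay between 14 and 20 when single libraries were left out, 14 without TC15 plant 6. Homeodomain factors were lower in 11 of 15 entries (median -0.24), a count that was 11 or 12 without any 1 of the 6 libraries. Besides BLH1 they included ATB16, with 188, 168 and 120.0 normalised reads in TC15 and 69.9, 114 and 34.7 in TC20 (log2 -1.24, SE 0.43). NF-Y factors were lower in 9 of 13 (median -0.13), with NFYA3 an exception at 896, 1287 and 824 in TC15 and 1703, 1845 and 1444 in TC20 (log2 0.75, SE 0.23). Of 22 WRKY factors 13 were lower, among them WRK57, with 1051, 1173 and 985 in TC15 and 739.6, 798 and 689 in TC20 (log2 -0.52, SE 0.15). AP2 and ERF, MYB and bZIP factors were higher in 16 of 30, 8 of 13 and 6 of 10. Without TC20 plant 9 these 3 counts were 13, 6 and 5.

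Pentatricopeptide repeat proteins were lower in TC20 in most entries. Of 261 listed members 249 were tested, and 219 of these were lower in TC20 and 30 higher, with a median log2 difference of -0.32 against 0.01 over all entries. Groups did not overlap in 51 members with TC20 below (20.5%, against 5.89% of all entries) and in 2 with TC20 above (against 6.98%). At an unadjusted p under 0.05 there were 21 lower and 0 higher, against 2.79% and 3.04% of all entries, and no member passed with limma or DESeq2. The description of the list therefore rests on its counts. Members are not replicates, since all are read from the same 6 libraries.

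The 4 members named by their unadjusted p show the size of the difference. PP256 had 129, 90.9 and 76.7 normalised reads in TC15 and 53.7, 54.2 and 53.2 in TC20 (log2 -0.83, SE 0.26). PP359 had 69.0, 66.3 and 66.2 in TC15 and 36.5, 39.3 and 41.3 in TC20 (log2 -0.77, SE 0.25). In both, the TC20 roots were nearly alike and the TC10 values, 60.0 and 69.4 for PP256 and 37.2 and 33.7 for PP359, lay near TC20. PP377 had 245, 263 and 252 in TC15 and 175, 199 and 127 in TC20 (log2 -0.62, SE 0.21). PP376 had 104, 81.1 and 67.0 in TC15 and 48.6, 52.5 and 39.1 in TC20 (log2 -0.82, SE 0.28). The exceptions without overlap, named after their values were seen, were PP209, with 299, 357 and 326 in TC15 and 373, 459 and 679 in TC20, and PP351, with 688, 806 and 778 in TC15 and 832, 883 and 963 in TC20. Across members the log2 difference ran from -1.25 (PP268) to 1.28 (PP395).

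Most of these entries are scarce, so they were set beside other entries of like abundance, with the tested entries ranked by mean value and cut into 5 equal bins. In the lowest bin 89.3% of 121 members were lower in TC20, against 49.8% of 840 other entries. In the next bin the shares were 90.2% of 82 members and 47.9% of 878 others, and in the middle bin 83.3% of 36 and 45.8% of 924. In the upper bins 6 of 9 members and 1 of 1 were lower. The median log2 difference of the members was -0.46, -0.28 and -0.18 in the 3 lower bins, and 0.00, 0.01 and 0.03 for the others.

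The level of the list, taken as the average of log2(value + 1) over the members tested and centred on the 6 libraries, was 0.26, 0.14 and 0.10 in TC15 plants 2, 6 and 10 and -0.07, -0.04 and -0.39 in TC20 plants 3, 5 and 9. The treatments did not overlap, and TC20 plant 9 was the lowest by a wide margin. TC10 plants 2 and 4, at -0.19 and -0.04, were in the TC20 range. Without TC20 plant 9 the members lower were 200 of 249 and the median was -0.19, so this plant moved the median by more than 1.5-fold. Without TC15 plant 2 there were 210 lower and the median was -0.26. Leaving out the other libraries in turn gave 212 to 221 lower and medians of -0.40 to -0.35, and TMM and upper-quartile scaling gave 223 and 224 lower.

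**Figure D4:**
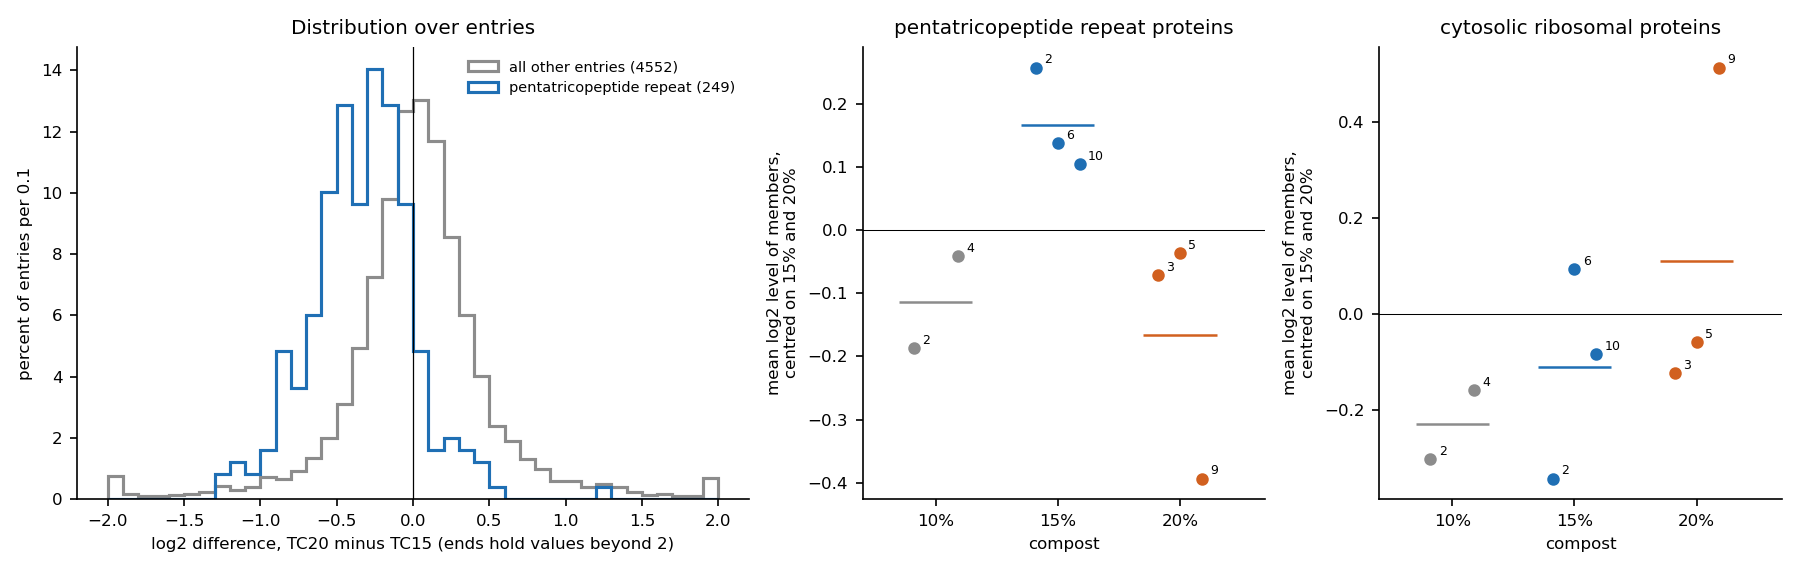
Left, percent of entries per 0.1 of log2 difference, TC20 minus TC15, for 249 pentatricopeptide repeat entries and all others; right, the mean log2 level of pentatricopeptide repeat and of cytosolic ribosomal entries in each library, numbered by plant, with treatment means as lines. The pentatricopeptide repeat entries are shifted to lower values and their TC15 and TC20 libraries do not overlap, while the ribosomal level is high in TC20 plant 9, at 0.51, and overlaps otherwise.

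Cytosolic ribosomal proteins, the components of the ribosome outside the organelles, were higher in 34 of 38 entries with a median log2 difference of 0.26, but in none did the groups fail to overlap. Their level was -0.34, 0.09 and -0.08 in TC15 and -0.12, -0.06 and 0.51 in TC20, so it was high in TC20 plant 9 and low in TC15 plant 2. Without TC20 plant 9 there were 25 of 38 higher and the median was 0.07, and without TC15 plant 2 the median was 0.17. RL7A2, the most abundant member, had 4332, 5185 and 3893 normalised reads in TC15 and 5103, 4658 and 6918 in TC20. Of 8 organelle ribosomal proteins 6 were higher, with RK27 at 355, 400.4 and 426 in TC15 and 477, 463 and 610.2 in TC20 (log2 0.38, SE 0.16).

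Mitochondrially encoded entries had 5 tested members, of which 4 were lower. The median log2 difference was -1.08, and without TC15 plant 2 it was -0.085, again with 4 of 5 lower. CCMC, a protein of cytochrome c maturation, had 199 normalised reads in TC15 plant 2 and 39.3 and 17.6 in the other TC15 roots, against 34.4, 17.5 and 14.1 in TC20. No member passed and no groups were separate. The list level was 2.46 in TC15 plant 2 and -0.96 to -0.07 in the other 5 libraries.

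F-box proteins, the substrate-binding subunits of SCF ubiquitin ligases, were lower in 68 of 113 tested entries (median -0.10). Groups did not overlap in 16 lower (14.2%, against 5.89% of all entries) and 3 higher (against 6.98%). FB309 had 51.3, 50.4 and 49.4 normalised reads in TC15 and 35.5, 24.5 and 21.7 in TC20 (log2 -0.89, SE 0.31). RING and U-box ubiquitin ligases were lower in 38 of 56 (median -0.16) with 1 separated member (1.79%, against 5.89% of all entries lower). It was ATL59, at 744, 797 and 752 in TC15 and 495, 643 and 514 in TC20 (log2 -0.48, SE 0.15). Without TC15 plant 2 the ligases lower were 32 and the median -0.04. Chromatin modifiers were lower in 23 of 31 (median -0.12), and in 17 of 31 without TC20 plant 9. Of 24 RNA silencing and DNA methylation genes 14 were lower, and all 5 whose groups did not overlap were lower (20.8%, against 5.89% of all entries). SUVH2, which recruits the silencing machinery to methylated DNA, had 585, 479 and 423 in TC15 and 345, 363 and 320.3 in TC20 (log2 -0.52, SE 0.17). RDR4, named after its values were seen, had 244, 159.7 and 137 in TC15 and 72.9, 90.0 and 4.34 in TC20 (log2 -2.41, SE 1.14).

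**Figure D5:**
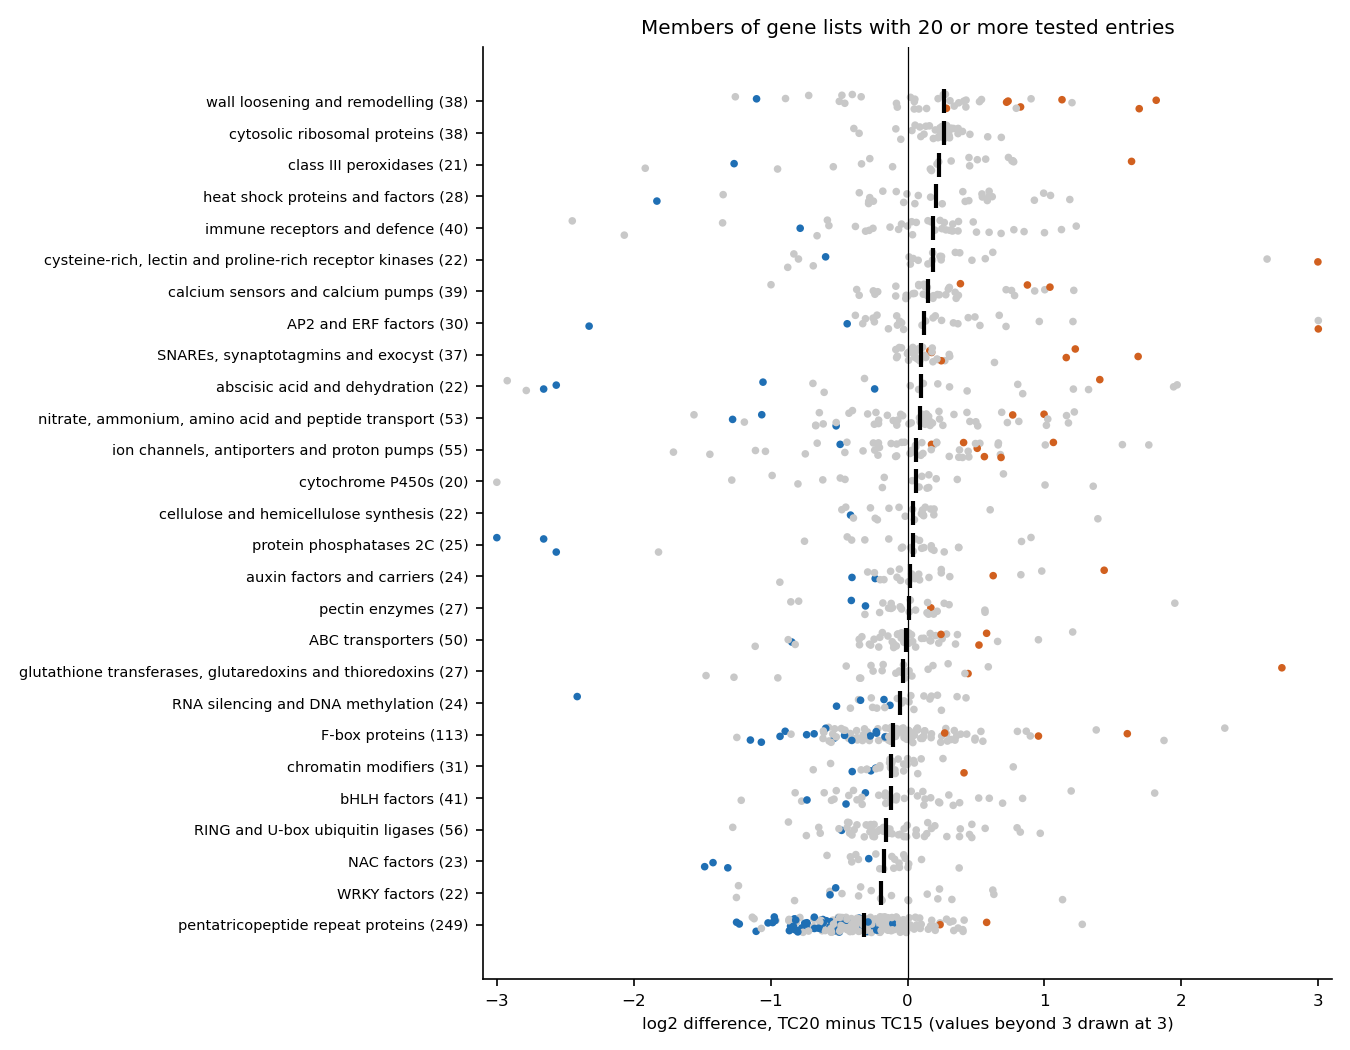
Log2 difference of TC20 minus TC15 (horizontal axis) of each tested member in the gene lists with 20 or more tested entries (number in brackets), with black bars at the medians; orange and blue mark members whose TC20 values lie all above or all below TC15. With all 6 libraries the pentatricopeptide repeat list has the lowest median, -0.32, and the wall loosening and ribosomal lists the highest, 0.27 and 0.26.

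Lists of the cell surface and of trafficking differed among themselves. Wall-associated and FERONIA-type kinases were higher in 7 of 17 entries (median -0.16), pectin enzymes in 14 of 27 and enzymes of cellulose and hemicellulose synthesis in 12 of 22. Without TC20 plant 9 these counts were 5, 9 and 10. Wall loosening and remodelling enzymes were higher in 27 of 38 entries (median 0.27) and separated in 7 higher (18.4%, against 6.98% of all entries) and 1 lower (2.63%, against 5.89%). XTH33, a xyloglucan endotransglucosylase, had 72.8, 188 and 105 normalised reads in TC15 and 195, 416 and 610.2 in TC20 (log2 1.69, SE 0.59). XTH8, of the same family, had 84, 57.7 and 57.3 in TC15 and 123, 90.0 and 269 in TC20 (log2 1.13, SE 0.42). The 1 separated member in the other direction was the expansin-like protein EXLB1, with 1645, 1722 and 2189 in TC15 and 597, 882 and 1187 in TC20 (log2 -1.10, SE 0.32). Without TC20 plant 9 the count was 21 of 38 higher and the median 0.04. SNAREs, synaptotagmins and exocyst subunits, which dock and fuse vesicles, were higher in 31 of 37 with a small median of 0.10, and 6 were separated, all higher (16.2%, against 6.98% of all entries). The exocyst subunit SEC3A, named after its values were seen, had 1044, 1086 and 1051 in TC15 and 1227, 1203 and 1131 in TC20 (log2 0.16, SE 0.11). Without TC20 plant 9 the list had 27 of 37 higher and the same median of 0.10.

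Calcium sensors and pumps were higher in 29 of 39 entries (median 0.15), and in 22 of 39 without TC20 plant 9 (median 0.05). CNBL4 (SOS3), a calcium sensor of salt tolerance, had 473, 392 and 498 normalised reads in TC15 and 577, 1288 and 1080.3 in TC20 (log2 1.04, SE 0.31). Its TC10 values of 1218 and 817 also exceeded TC15. The kinase CIPK9, of the family that such sensors bind, had 66.2, 90.9 and 119 in TC15 and 154, 134 and 218 in TC20 (log2 0.88, SE 0.30). Among 55 ion channels, antiporters and proton pumps 33 were higher (60%, against 51.7% of all entries). The vacuolar sodium and potassium antiporter NHX2 was on the lower side, with 1774, 1936 and 1547 in TC15 and 1512, 1001 and 1261 in TC20 (log2 -0.49, SE 0.18), and the potassium transporter POT1 on the higher, with 284, 271 and 291 in TC15 and 339, 666 and 411 in TC20 (log2 0.68, SE 0.27).

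Nutrient genes differed in both directions, none past the limma threshold. Of 18 phosphate genes 11 were higher. The phosphate transporter PHT17 had 1237, 1066 and 1109 normalised reads in TC15 and 1434, 1754 and 1307 in TC20 (log2 0.39, SE 0.16). The purple acid phosphatase PPA14 had 82.1, 33.2 and 44.1 in TC15 and 19.2, 11.4 and 8.69 in TC20 (log2 -1.91, SE 0.53). Of 11 sulfur genes 6 were higher, with APS1, the first enzyme of sulfate assimilation, at 955, 1037 and 1022 in TC15 and 1268, 1222 and 1289 in TC20 (log2 0.33, SE 0.12). The sulfate transporter SUT34 had 5169.9, 4542 and 3796 in TC15 and 3662, 3319.6 and 2220.3 in TC20 (log2 -0.57, SE 0.23). In each of these 4, which were named by their unadjusted p, the groups did not overlap. That held for 16.7% of the phosphate and 27.3% of the sulfur genes tested, against 12.9% of all entries. Among 53 nitrogen transporters 30 were higher, and 23 without TC20 plant 9 (median -0.04). Groups did not overlap in 2 higher (3.77%, against 6.98% of all entries) and 3 lower (5.66%, against 5.89%). The amino acid permease AAP3 had 933, 692 and 820.4 in TC15 and 1211, 1509 and 2306 in TC20 (log2 1.0, SE 0.31). PTR33, of the same list, was lower, at 6118, 7563 and 4643 in TC15 and 3583, 2439 and 1724 in TC20 (log2 -1.28, SE 0.41).

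In the stress lists, heat shock proteins and factors were higher in 17 of 28 (median 0.21), and the separated member was HSFC1, which was lower (3.57%, against 5.89% of all entries). Antioxidant enzymes were higher in 10 of 12 (median 0.07) and glutathione transferases, glutaredoxins and thioredoxins in 10 of 27 (median -0.03), with no member at an unadjusted p under 0.05 in either, against 5.83% of all entries. The antioxidant count fell to 4 of 12 without TC20 plant 9 (median -0.05) and to 4 of 12 without TC15 plant 10 (median -0.04). Immune receptors and defence proteins were higher in 25 of 40 (median 0.19), also with no member at an unadjusted p under 0.05. Without TC20 plant 9 they were higher in 18 of 40 (median -0.015). Of 9 aquaporins 7 were higher, and NIP61, a boron channel, had 1290.2, 1637 and 1984 normalised reads in TC15 and 2303, 2191 and 2203 in TC20 (log2 0.47, SE 0.19).

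Outside the lists, the entries with the smallest p were mostly enzymes and carriers of metabolism. RETOL, a reticuline oxidase-like protein, had 499, 373 and 385 normalised reads in TC15 and 1087, 1279 and 769.8 in TC20 (log2 1.30, SE 0.34). USP, a pyrophosphorylase that makes UDP-sugars, had 224, 247 and 232 in TC15 and 316, 353 and 331 in TC20, a small difference with a narrow spread (log2 0.51, SE 0.15). MTHR2, a methylenetetrahydrofolate reductase of methionine synthesis, had 3707, 3967 and 4284 in TC15 and 6132, 5071 and 6468 in TC20 (log2 0.56, SE 0.16, DESeq2 adjusted p = 0.0682). On the lower side, BAC2, a mitochondrial carrier of basic amino acids, had 399, 297 and 281 in TC15 and 98.3, 164 and 57.5 in TC20 (log2 -1.71, SE 0.45). NCS1, a purine and uracil permease, had 841, 737 and 918 in TC15 and 509, 555 and 495 in TC20 (log2 -0.67, SE 0.16). R47BP, an RNA-binding protein of the RBP47 family, had 486, 655 and 651 in TC15 and 359.7, 353 and 288 in TC20 (log2 -0.83, SE 0.19, DESeq2 adjusted p = 0.0644). Separate TC15 and TC20 groups, found in 12.9% of all entries, were a condition for naming these 6, and none passed.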

How the data were processed

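Root RNA-seq was compared between 3 TC15 and 3 TC20 plants. Each deposited file holds 1 signal value per entry, which the authors made from read counts divided by a size factor: in every library 100% of the values were whole multiples of 1 read within 0.001. The tools named in the submitters' processing notes are kallisto, DESeq2, Trim Galore and FastQC. The sources used here give neither versions nor the transcript reference. An entry not in a file was taken as 0. The 8 libraries, TC10 included, shared 1 estimate of spread in limma 3.58.1 (R 4.3.3, empirical Bayes with trend) on log2(value + 1), a scale that understates the change of low entries. The contrast was TC20 minus TC15 over the 4801 entries with a value of 10 or more in 2 or more libraries. edgeR 4.0.16, DESeq2 1.42.0 (without that filter) and limma-voom were run on the recovered reads, which carry no molecular identifiers, so floors cover counting error only. The scripts were tested on simulated counts.

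Plants are separate in the labels, so p-values measure the spread between plants. Plant measurements were compared by exact permutation over 20 allocations (scipy 1.17.1, Python 3.11.15). Entries were grouped by name into 50 lists and described by counts and medians. Named were entries past the limma threshold or called by DESeq2 or edgeR, the 12 higher and 12 lower with the smallest p at a mean of 20 or more and without overlap, and up to 4 members of each list with an unadjusted p under 0.05, or else its most abundant one. Members and lists were chosen with earlier results of these data known.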

Additional observations from a re-analysis of the deposited data

How the results depend on the processing

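No paired analysis was possible because TC15 plants 2, 6 and 10 and TC20 plants 3, 5 and 9 share no replicate number. The 1 entry past the limma threshold was lost, leaving 0, with edgeR, limma-voom, a filter of 10 or more in 3 of the 6 libraries, a pseudocount of 10 and the 6 libraries only, and in every fit without 1 library (0 to 0). DESeq2 called 4 higher and 7 lower, and limma without the trend called 1 lower. The 280 entries at an unadjusted p under 0.05 ranged from 134, without TC15 plant 2, to 371, without TC15 plant 10, and were 182 without TC15 plant 6. The 11 DESeq2 calls, in an alternative chosen after seeing the data, became 3, of which 2 were among the 11, without TC15 plant 2, 35 without TC15 plant 10, 30 without TC20 plant 3 and 21 without TC20 plant 5; TCX3 was called in each of these fits. The causes were not tested.

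Among list members named for abundance alone, the log2 difference changed sign in PERK1 with edgeR (-0.0073), TMM scaling (-0.0038) and upper-quartile scaling (-0.026), and in PLY15 with limma-voom (-0.00146), TMM (-0.0029) and upper-quartile scaling (-0.025). Without single libraries it ran from -0.14 to 0.19 in PERK1, -0.23 to 0.26 in PLY15, -0.0525 to 0.17 in VA721, -0.31 to 0.25 in M3KE1, -0.25 to 0.0733 in CCR1, -0.0177 to 0.77 in DHAR2, -0.54 to 0.34 in PUMP4, -0.0831 to 0.17 in COI1 and -0.63 to 1.43 in CHI5. Without single plants the difference in means ran from -4.83 to 12.2 cm for height, -3.17 to 8.0 cm for longest branch, -74.2 to 15.8 ug/g for arsenic and -3.83 to 19.2 ug/g for lead; zinc stayed lower, at -598 to -247 ug/g. Each of the 50 lists was counted once per alternative setting. The list median moved by less than the spread between plants in 929 of these cases and by more in 21.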

Other observations

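Jasmonate genes and related stress entries were high in TC20 plant 9 alone among the 6 roots compared; the entries below were chosen after their values were seen. This root held a value at least 4-fold above the next of the 6 in 30 entries, against 2 to 7 in the other roots. TIF5A, a TIFY repressor of jasmonate signalling, had 559 normalised reads in TC20 plant 9 and 2.46 to 17.5 in the other 5 roots. AOC4, an allene oxide cyclase of jasmonate synthesis, had 6829 there and 353 to 516 elsewhere. C94C1, a cytochrome P450 that oxidises the active jasmonate, had 5024 there and 342 to 602 elsewhere. PLA16, a phospholipase, had 2393 there and 10.1 to 28.3 elsewhere. TC10 plant 2, which is outside the comparison, had 517 for TIF5A, 1204 for AOC4, 1475 for C94C1 and 196 for PLA16, while TC10 plant 4 had 6.74, 368, 282 and 13.5. All 6 tested members of the jasmonate list were higher in TC20, with a median log2 difference of 1.10, and 3 of 6 without TC20 plant 9 (median 0.07). COI1, the jasmonate receptor, had 2242 in TC20 plant 9 and 2376 to 3177 in the other roots.

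COR47, a dehydrin, showed the same one-plant pattern in the other treatment, with 1758 normalised reads in TC15 plant 2, 146 and 11.5 in the other TC15 roots and 8.11 to 39.1 in TC20. WNK10, a WNK-type kinase, had 4.66, 1.23 and 12.4 in TC15 and 302, 594 and 36.9 in TC20, with 514 and 0 in TC10. RAP26, an ethylene response factor, had 639 in TC20 plant 5, 145 in TC20 plant 9, 14.2 in TC20 plant 3 and 3.73 to 30.9 in TC15.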
